A study of Mus musculus with 30 samples.

Results

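The oligodendrocyte lineage regulators described here are 6 genes of the oligodendrocyte lineage, namely the transcription factor genes Sox10, Nkx2-2, Nkx6-2 and Myrf and the receptor genes Erbb3 and Pdgfra. Their members were taken as all probe sets whose only gene symbol in the platform annotation was 1 of these names, which gave 10 probe sets for 6 of the 8251 genes named on the array. Of the 10 probe sets, 8 passed the filter on dim signals (a geometric mean intensity above 30.8 over all arrays) and were tested. Total RNA of male mouse hippocampus was measured on 30 Affymetrix MG-U74Av2 arrays, which carry short probes grouped into probe sets, and each array held the pooled hippocampi of 2 pups. The pups came from crosses of C57BL/6 with Nf1 heterozygous mice, and each pool was either heterozygous for Nf1 or wild type; the sources used here do not name the form of the Nf1 allele. Heterozygous groups held 4, 4, 2, 2, 2 and 1 libraries at postnatal days 10, 15, 18, 20, 28 and 32 (P10 to P32), and wild-type groups held 3, 4, 2, 2, 2 and 2 at the same ages. Sample titles carry a code such as 1a or 2b that no source used here explains, and neither litter nor processing day is stated. A p-value here therefore reflects only how far pools of a group differ, which may be technical.

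Oligodendrocytes arise from proliferating precursors that respond to platelet-derived growth factor through the receptor encoded by Pdgfra, and they lose this receptor as they differentiate. Sox10, an HMG-box factor present throughout the lineage, acts with the homeodomain factors Nkx2-2 and Nkx6-2 and with Myrf, a membrane-bound factor that releases its own DNA-binding part, to turn on myelin genes. In the rodent hippocampus myelin forms after birth, within the ages sampled here. Loss of Nf1 in the mouse is known to act on glial precursors through Ras signalling, and the design allows the lineage genes to be compared between genotypes at each age.

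Across the whole series, array medians lay between 50 and 59.1 intensity units and log2 values of libraries of 1 group correlated at 0.94 to 0.98 across probe sets. The log2 ratio of the 3′ to the 5′ Gapdh control probe sets, a sign of RNA quality, lay between -0.33 and 0.48, and its highest value belonged to 1 of the 2 heterozygous P18 libraries. The Nf1 probe set was dim, with intensities of 2.15 to 15 (median 5.09) in heterozygous and 1.43 to 19.1 (median 6.17) in wild-type libraries, and it checks no label. All 6 hippocampal neuron markers on the array passed the filter, and their summed intensity was 3077 to 6460 in heterozygous and 2549 to 4984 in wild-type libraries. Snap25 made up much of this sum, at 1876 to 2437 at P10 and 3348 to 4142 at P28 and P32. Camk2a was dim, with a median of 13.2 at P10 and 14.9 at P28 and P32. In pooled tissue, fewer cells of a type and less RNA per cell cannot be told apart.

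Promoter sequences of 3 of the 6 genes, Nkx2-2, Nkx6-2 and Pdgfra, were matched by symbol in a RefSeq table of GRCm38.p6. The 250 bases before the transcript start in that table are shown for Nkx6-2, which rose with age, and for Pdgfra, which fell, written 5′ to 3′ on the strand of the gene. Capitals mark matches to the searched motifs, and Nkx6-2 lies at chr7:139582798-139583047 (minus strand) and Pdgfra at chr5:75152001-75152250 (plus strand). The Pdgfra window, and that of Nkx2-2, lie inside the annotated gene interval, before an internal transcript start and not at the gene's 5′ end.
Nkx6-2: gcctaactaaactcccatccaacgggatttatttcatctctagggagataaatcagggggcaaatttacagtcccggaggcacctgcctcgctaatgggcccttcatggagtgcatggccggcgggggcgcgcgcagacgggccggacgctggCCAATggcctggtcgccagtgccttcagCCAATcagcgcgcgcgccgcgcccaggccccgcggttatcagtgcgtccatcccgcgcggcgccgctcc
Pdgfra: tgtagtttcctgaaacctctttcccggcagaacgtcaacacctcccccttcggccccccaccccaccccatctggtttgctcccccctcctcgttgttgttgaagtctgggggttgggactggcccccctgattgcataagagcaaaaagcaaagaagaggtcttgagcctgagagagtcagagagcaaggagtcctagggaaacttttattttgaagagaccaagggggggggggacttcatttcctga
The Nkx6-2 sequence held 26 CG pairs and 65.2% G and C, against 4 CG pairs and 54.4% in Pdgfra. Of 32851 promoters of this length, 90.4% held fewer CG pairs than Nkx6-2, 57.0% held fewer than the 8 of Nkx2-2, and 37.8% held fewer than Pdgfra. Motifs were searched on both strands as ACAAAG and ACAATG (letters bound by SOX factors), CTGGCAC (MYRF), TNAAGTG (NKX2-2), TAATTA (homeodomain factors) and CCAAT (NF-Y). They occurred in 16.5%, 10.7%, 4.19%, 10.1%, 4.84% and 33.8% of all promoters of this length. Nkx6-2 held CCAAT with first bases 97 and 69 bases before the start. In Nkx2-2 a match to the NKX2-2 motif on the opposite strand began 197 bases before the start. Pdgfra held none of the 6 motifs in this window, and these matches describe letters only.

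From P10 to P28 and P32, taken over both genotypes, the RNA of Nkx6-2, Erbb3, Myrf and Sox10 rose, that of Pdgfra fell, and no change was called for Nkx2-2. This comparison, called maturation here, sets the mean of the P28 and P32 groups against the P10 groups and covers 7 libraries at the later ages and 7 at P10. Called means an adjusted p below 0.05 in limma with Benjamini-Hochberg adjustment over all 7453 tested probe sets. Of the 8 tested member probe sets, 5 were called higher and 1 lower, beside 24.7% of all tested probe sets called higher and 29% called lower. Nkx6-2 and Erbb3 passed the filter through the ages at which they are high, so these counts describe the members and carry no test of them as a set. With no filter, all 10 probe sets were tested and the same 6 were called.

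**Figure D1:**
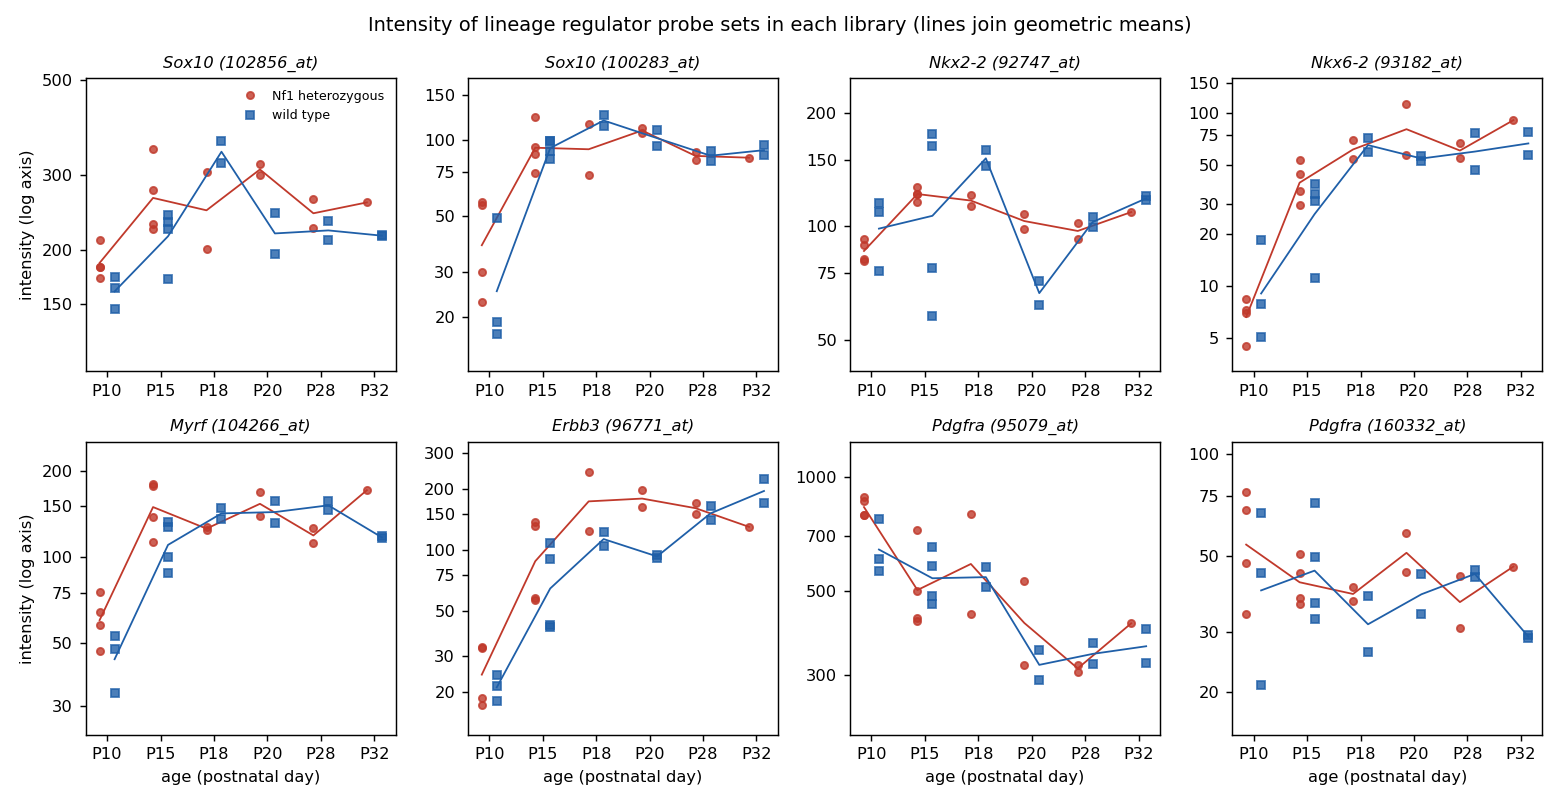
Intensity (log axis) of the 8 tested probe sets in every library against age in postnatal days, with Nf1 heterozygous libraries as red circles left of the wild-type libraries as blue squares and lines joining geometric means. Nkx6-2 lies between 4.51 and 18.5 at P10 and between 47.0 and 91.5 at P28 and P32, while Pdgfra 95079_at lies between 565 and 885 at P10 and between 306 and 411 at P28 and P32.

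Sox10 (chromosome 15, 79154913 to 79164490, GRCm38.p6), whose product is needed for terminal oligodendrocyte differentiation, was measured by 2 tested probe sets that both rose but by different amounts. At P10, probe set 100283_at read 30.2, 56.8, 55.3 and 22.9 in heterozygous libraries and 17.1, 49.4 and 19.1 in wild-type libraries. At P15 it read 88.4, 93.5, 74.2 and 123 in heterozygous and 84.4, 90.1, 98.9 and 98.9 in wild-type libraries. Each of the 8 P15 libraries was above each of the 7 P10 libraries. From P18 on it stayed between 72.8 and 125, and at P28 and P32 it averaged 87.7 ± 4.48 (SD, n = 7), against 35.8 ± 17.5 at P10 (n = 7). The log2 change in maturation was 1.49 (SE 0.21, limma adjusted p = 3.02e-06), and it read 0.88 on the log2(intensity + 32) scale. Most P10 readings of this probe set lay below the filter intensity of 30.8, so no fold is given.

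The brighter Sox10 probe set, 102856_at, moved less. Its intensity averaged 233 ± 21.3 at P28 and P32 (SD, n = 7) and 176 ± 20.4 at P10 (n = 7). The lowest later library, at 212, equalled the highest P10 library to 3 digits, so the ages met at their edges. The rise was 0.44 on the log2 scale (SE 0.11, limma adjusted p = 0.00162), or 1.36-fold. Within genotypes it was 0.43 (SE 0.16, limma adjusted p = 0.035) in heterozygotes and 0.45 (SE 0.15, limma adjusted p = 0.0221) in wild type. The heterozygous call was lost without the P10 library 1a, 2a or 2b, the P28 library 1b or the P32 library 1a (0.37 to 0.42, limma adjusted p 0.0611 to 0.101). The wild-type call was lost without the P10 library 2a or 2b or the P28 library 1a (0.39 to 0.46, limma adjusted p 0.0503 to 0.0964). Which transcripts each probe set covers was not examined. Across all 30 arrays the 2 probe sets correlated at 0.75, and their deviations from group means correlated at 0.43 (a description of arrays that share libraries).

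Nkx2-2 (chromosome 2, 147176485 to 147195434), a homeodomain gene that in the mouse promotes the step from precursor to myelin-forming cell, showed no called change with age. At P10 it read 82.1, 92.5, 89.0 and 80.8 in heterozygous and 76.3, 115 and 109 in wild-type libraries. At P15 the heterozygous libraries lay close together at 127, 122, 116 and 122, whereas the wild-type libraries fell into a low pair, 77.7 and 57.8, and a high pair, 163 and 176. The low wild-type pair carries title codes 1a and 1b and the high pair 2c and 2d. Maturation was 0.21 (SE 0.18, 95% interval -0.15 to 0.57, limma adjusted p = 0.318). The P10 to P15 step was 0.31 (SE 0.17, limma adjusted p = 0.186) and became a called 0.45 (limma adjusted p = 0.0161) without the wild-type P15 library 1b. At P20 the wild-type libraries were the lowest outside P15, at 61.7 and 71.6, against 108 and 98.6 in heterozygous libraries, and this difference of 0.63 (SE 0.32) was not called (limma adjusted p = 0.331).

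Nkx6-2 (chromosome 7, 139579376 to 139582797), a homeodomain gene of maturing oligodendrocytes that in the mouse bears on the structure of the paranode, rose by 3.15 on the log2 scale over both genotypes, above the 2.80 of Erbb3. In wild type alone (2.81, against 3.03 for Erbb3) and on the log2(intensity + 32) scale (1.33, against 1.79) that order was turned, and the difference between the 2 genes was not tested. At P10 it read 7.01, 4.51, 8.42 and 7.25 in heterozygous libraries and 18.5, 5.09 and 7.93 in wild-type libraries. At P15 the values were 35.4, 29.6, 44.5 and 53.6 in heterozygous libraries and 39.2, 31.0, 11.2 and 34.3 in wild-type libraries. One wild-type P15 library, at 11.2, lay inside the P10 range, and the other 7 lay above it. At P18 the readings were 54.6 and 70.2 in heterozygous and 71.7 and 60 in wild-type libraries, all above every P15 library. At P20 they were 57.7 and 114 in heterozygous and 53.1 and 56.7 in wild-type libraries. The 7 libraries of P28 and P32 read 67.2, 55.4 and 91.5 in heterozygotes and 77.1, 47.0, 57.7 and 78.0 in wild type, so that none overlapped P10.

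On average Nkx6-2 stood at 67.7 ± 15.5 at P28 and P32 (SD, n = 7) and at 8.38 ± 4.67 at P10 (n = 7). The log2 change was 3.15 (SE 0.29, limma adjusted p = 3.17e-09). All 7 P10 libraries read below 30.8, the intensity at which the filter was set, so the size of this change rests on dim readings and no fold is given. On the log2(intensity + 32) scale the same change was 1.33 and was called. The order of the age means on the log2 scale was P10 at 2.92, P15 at 5.01, P18 at 5.99, and P28 with P32 at 6.05 beside P20 at 6.06. The P15 to P18 step of 0.98 (SE 0.32) was not called (limma adjusted p = 0.0755), and means from P18 on lay within 1 SD of each other.

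Myrf (chromosome 19, 10208271 to 10240777), the factor that drives myelin gene expression in the central nervous system of the mouse, rose by P15, with no later change called. At P10 it read 46.8, 63.9, 75.5 and 57.7 in heterozygous and 47.7, 33.4 and 52.9 in wild-type libraries. At P15 it read 113, 138, 180 and 177 in heterozygous and 127, 99.7, 87.9 and 132 in wild-type libraries. All 8 P15 libraries were above all 7 P10 libraries. At P28 and P32 it read 112, 126 and 171 in heterozygous and 157, 146, 118 and 116 in wild-type libraries. It averaged 135 ± 22.8 at these later ages (SD, n = 7) and 54.0 ± 13.5 at P10 (n = 7), a log2 change of 1.42 (SE 0.13, limma adjusted p = 4.75e-09), or 2.68-fold.

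Erbb3 (chromosome 10, 128567523 to 128589635) encodes a receptor for neuregulins that signals in partnership with other ErbB receptors. At P10 its probe set 96771_at read 32.9, 17.2, 18.6 and 33.2 in heterozygous and 21.4, 24.2 and 18 in wild-type libraries. At P15 it read 57.0, 57.8, 138 and 132 in heterozygous and 108, 90.0, 41.9 and 42.8 in wild-type libraries. Every P15 library was above every P10 library, but within each genotype the 4 P15 libraries formed 2 tight pairs. The pairs followed the title number, and they ran in opposite order: number 1 was the low pair in heterozygotes (57.0 and 57.8) and the high pair in wild type (108 and 90.0).

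Erbb3 was higher at P28 and P32 than at P15 over both genotypes, with no steady climb between. It read 124 and 243 in heterozygous and 122 and 105 in wild-type libraries at P18, and 197 and 163 against 91.5 and 94.4 at P20. At P28 and P32 the values were 171, 151 and 130 in heterozygous and 164, 140, 223 and 171 in wild-type libraries. The average was 164 ± 30.3 at P28 and P32 (SD, n = 7) and 23.7 ± 6.84 at P10 (n = 7). Maturation was 2.80 on the log2 scale (SE 0.25, limma adjusted p = 1.93e-09) and 1.79 on the log2(intensity + 32) scale, and most P10 readings lay below the filter intensity of 30.8, so no fold is given. The other Erbb3 probe set, 101776_at, was dim in every library, at 1.35 to 5.29, and without the filter its maturation was 0.05 (SE 0.26, limma adjusted p = 0.899).

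Sox10 and Erbb3 are also genes of Schwann cells, the myelin-forming cells of peripheral nerve. Of 5 Schwann cell markers, Pmp22 alone was on the array, at 87.3 to 122 at P28 and P32 and 72.0 to 111 at P10, and its change of 0.17 (SE 0.11) was not called (limma adjusted p = 0.182). Its part in the rise of Sox10 and Erbb3 was not tested.

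Pdgfra (chromosome 5, 75151322 to 75198206), the receptor through which platelet-derived growth factor keeps oligodendrocyte precursors dividing, fell with age on its bright probe set, 95079_at. At P10 this probe set read 796, 863, 796 and 885 in heterozygous and 565, 778 and 608 in wild-type libraries. At P15 it read 499, 424, 726 and 418 in heterozygous and 655, 584, 462 and 484 in wild-type libraries, which overlapped the P10 range. The P18 libraries, at 434 and 802 in heterozygotes and 513 and 578 in wild type, overlapped the P15 range of 418 to 726, and the P15 to P18 step of 0.12 (SE 0.16) was not called (limma adjusted p = 0.702). At P20 the values were 319 and 532 in heterozygotes and 292 and 349 in wild type. At P28 and P32 they were 306, 319 and 411 in heterozygotes and 320, 364, 397 and 322 in wild type, all below every P10 library.

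Pdgfra 95079_at averaged 348 ± 42.1 at P28 and P32 (SD, n = 7) and 756 ± 123 at P10 (n = 7). Its log2 change was -1.05 (SE 0.14, limma adjusted p = 1.47e-06), so that the later level was 2.07-fold lower. No change was called for the 2 other Pdgfra probe sets: 160332_at changed by -0.27 (SE 0.23, 95% interval -0.75 to 0.21, limma adjusted p = 0.343), and the dim 161202_r_at, tested only without the filter, by 0.93 (SE 0.46, limma adjusted p = 0.116). Probe set 160332_at read 28.7 to 46.6 at P28 and P32 and 20.9 to 77.3 at P10. It correlated at 0.13 with 95079_at across the 30 arrays.

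Pdgfra is also expressed by fibroblasts of the meninges and vessels. Of 8 such markers on the array 6 were tested, and 4 of them fell in maturation while 0 rose. The shares over all tested probe sets were 29% called lower and 24.7% called higher. The median of the 6 was -0.54, beside -0.06 over all tested probe sets. Collagen genes led this list, with Col3a1 at -1.31 (SE 0.19), Col1a1 at -1.13 (SE 0.12) and the matrix gene Fbln1 at -0.80 (SE 0.09), all called. Col1a2 was called at -0.29 (SE 0.10), while Dcn (-0.09, SE 0.12) and Lum (-0.03, SE 0.17) were not called. The summed intensity of the 8 markers was 1147 to 1495 at P28 and P32, 1390 to 1846 at P15 and 1661 to 1917 at P10, and none of the 8 was below an intensity of 1 on any array. Their part in the fall of Pdgfra was not tested.

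In single libraries, the P28 and P32 intensities lay above all P10 intensities for Sox10 100283_at, Nkx6-2, Myrf and Erbb3 96771_at and below them for Pdgfra 95079_at. Over all tested probe sets, 13.6% lay above and 13.3% below P10 without overlap. The brighter Sox10 probe set, Nkx2-2 and Pdgfra 160332_at overlapped.

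The rises and the fall were split into an early step and the later weeks, and whether this split differs between members was not tested. From P10 to P15, over both genotypes, 5 of the 8 probe sets rose and 1 fell, beside 12.5% and 13.4% of all tested probe sets. Nkx6-2 rose by 2.06 (SE 0.27), Erbb3 by 1.74 (SE 0.23), Sox10 by 1.58 (SE 0.20) and 0.47 (SE 0.10), and Myrf by 1.32 (SE 0.13) on the log2 scale, with limma adjusted p of 0.0016 or less. Pdgfra 95079_at changed by -0.49 (SE 0.14, limma adjusted p = 0.00916). The step was thus 106% of the whole log2 change for both Sox10 probe sets, 92.8% for Myrf, 65.2% for Nkx6-2, 62.0% for Erbb3 and 46.6% for Pdgfra.

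From P15 to P28 and P32, 2 of the 8 probe sets rose further and 1 fell, beside 20.8% and 22.6% of all tested probe sets. Nkx6-2 rose by 1.10 (SE 0.28, limma adjusted p = 0.0027) and Erbb3 by 1.06 (SE 0.24, limma adjusted p = 0.00102), and Pdgfra fell by 0.56 (SE 0.14, limma adjusted p = 0.00223). Myrf stood at 0.10 (95% interval -0.16 to 0.37) and the Sox10 probe sets at -0.09 (-0.52 to 0.33) and -0.03 (-0.24 to 0.19), none of them called. Whether the later change differs between members was not tested. With that Gapdh ratio added to the model as a covariate, the later rises of Nkx6-2 (0.73, limma adjusted p = 0.0962) and Erbb3 (0.71, limma adjusted p = 0.0579) and the early fall of Pdgfra (-0.32, limma adjusted p = 0.0979) were no longer called. The ratio was -0.14 to 0.15 at P28 and P32, -0.26 to -0.08 at P15 and -0.15 to 0.06 at P10.

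**Figure D2:**
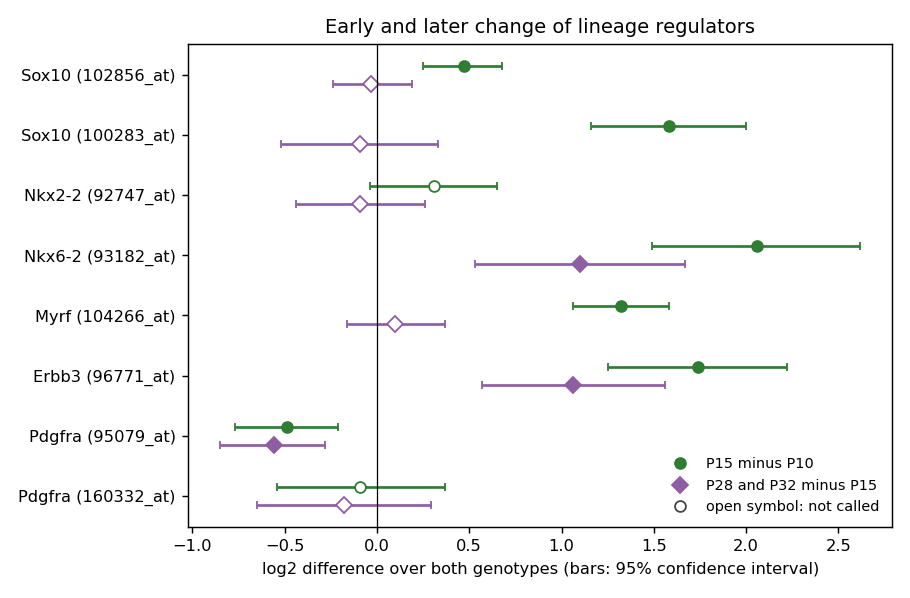
Log2 difference over both genotypes for each tested probe set, with P15 minus P10 as green circles and P28 with P32 minus P15 as purple diamonds, bars for the 95% confidence interval and open symbols where the change was not called. For Sox10 and Myrf the early change alone was called, for Nkx6-2 and Erbb3 both were (2.06 and 1.74, then 1.10 and 1.06), and Pdgfra 95079_at fell in both.

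No single step between neighbouring later ages was called for any of the 8 probe sets, in 0 of 32 tests. Over all tested probe sets, 3.84% were called from P15 to P18, 0.0134% from P18 to P20, 8.06% from P20 to P28 and 0.0134% from P28 to P32. Unadjusted p-values below 0.05 were found for 3 of 8 members from P15 to P18, 2 of 8 from P18 to P20 and 0 of 8 in each of the 2 last steps. Over all 7453 tested probe sets the matching counts were 1642, 567, 1744 and 207. Those from P18 to P20 were Pdgfra 95079_at, at -0.64 (SE 0.18, limma adjusted p = 0.391), and Nkx2-2, at -0.69 (SE 0.23, limma adjusted p = 0.561). Erbb3 stood at 0.89 from P15 to P18 (SE 0.28, limma adjusted p = 0.0633).

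Other genes of the same pathways were read from lists chosen with earlier results known. Among 10 tested transcription factor genes that act elsewhere in the lineage, 3 rose and 6 fell in maturation. Over all tested probe sets 24.7% were called higher and 29% lower. The median of the 10 was -0.36, beside -0.06 over all tested probe sets. Sox4 (-1.21, SE 0.12) and Sox11 (-0.89, SE 0.16), SOX genes of immature cells, fell. Id4, an inhibitor of basic helix-loop-helix factors, rose by 1.08 (SE 0.10), and Hes5, a Notch target that holds back differentiation, changed by -0.59 (SE 0.16). Of 4 tested genes of the precursor surface and matrix all 4 fell, beside 29% of all tested probe sets called lower. Ptprz1 (-0.91, SE 0.11), Matn4 (-0.86, SE 0.13) and Vcan (-0.83, SE 0.11) were in the lead. All of these changes were called.

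Among ligands and partner receptors, Pdgfa, which encodes the main ligand of the Pdgfra product, read 345 to 428 at P28 and P32 and 316 to 404 at P10. Its maturation was 0.14 (SE 0.09) and was not called (limma adjusted p = 0.202), whereas Pdgfb fell by 1.01 (SE 0.18) and Pdgfrb by 0.44 (SE 0.13). In the neuregulin and EGF family, 8 genes were on the array and 2 passed the filter. Hbegf fell by 0.62 (SE 0.10) and Tgfa, at -0.23 (SE 0.14), was not called. Erbb4 and Nrg3 were below the filter. Of 9 genes of myelinating oligodendrocytes on the array 7 were tested and all 7 were called higher, beside 24.7% of all tested probe sets. Mog, Mal and Ugt8a had P10 means below the filter level and passed through the later ages, so this count is partly set by the filter. Cnp and Gjb1 were below the filter and not tested. Cnp read 3.80 to 20.6 at P28 and P32 and 5.29 to 30.7 at P10, with no rise to be seen. Gjb1 read 19.5 to 62.3 at P28 and P32 and 13.2 to 24.5 at P10, so the ages overlapped. Mobp, a myelin protein gene, read 1773 to 2459 at P28 and P32 and 21.2 to 103 at P10. Mog, a gene of the outer myelin surface, read 343 to 415 at P28 and P32 and 2.46 to 22.1 at P10, where its readings were too dim for the size of its change to be read.

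**Figure D3:**
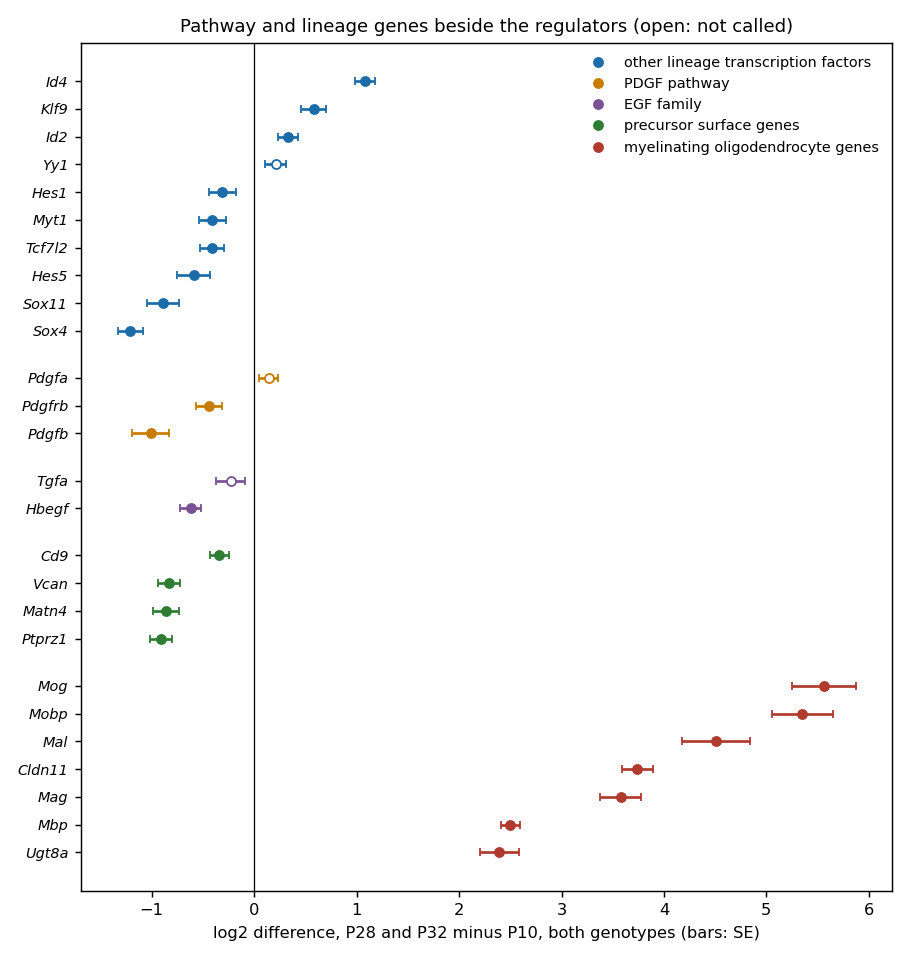
Log2 difference of P28 and P32 minus P10 over both genotypes, with its SE, for tested genes of 5 lists, with open circles where the change was not called. Precursor genes such as Ptprz1 (-0.91) lie left of 0, and the 7 myelinating oligodendrocyte genes lie between 2.39 and 5.56.

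Across the 30 arrays, the genes whose log2 values were most like Nkx6-2 were Mal, Mobp and Cldn11, all myelin or oligodendrocyte membrane genes, each with a Pearson r of 0.94. For Erbb3 they were Septin4 (0.96), Ubl3 (0.95) and Ctss (0.95), and for Myrf they were Gsn (0.93), Mbp (0.92) and Aldoc (0.91). Sox10 102856_at was most like Wbp2 (0.83), Ddr1 (0.81) and Slc2a1 (0.80), and Pdgfra 95079_at was most like Nras (0.82), Mrpl52 (0.80) and Ybx1 (0.80). Nkx2-2 had no gene above 0.64, with Pole3 (0.64), Penk (0.63) and Mtss2 (0.62) nearest. These values are descriptions over 30 arrays that share ages and libraries. Between members, Nkx6-2 correlated with Erbb3 at 0.91 and with Myrf at 0.87, and with Pdgfra 95079_at at -0.66. Taken as deviations from group means, which leave out age and genotype, the same pairs stood at 0.40, 0.56 and 0.14.

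In each genotype taken alone, Nkx6-2, Erbb3, Myrf and Sox10 rose and Pdgfra fell. In maturation 6 of 8 probe sets were called in heterozygotes, beside 36.5% of all tested probe sets, and 6 of 8 in wild type, beside 38.2%, and the same 6 were called in both. Nkx6-2 rose by 3.50 (SE 0.41) in heterozygotes and 2.81 (SE 0.40) in wild type, and Erbb3 by 2.57 (SE 0.36) and 3.03 (SE 0.34). Myrf rose by 1.24 (SE 0.19) in heterozygotes and 1.60 (SE 0.19) in wild type. Sox10 100283_at rose by 1.16 (SE 0.31) in heterozygotes and 1.81 (SE 0.30) in wild type. Pdgfra 95079_at changed by -1.22 (SE 0.21) in heterozygotes and -0.88 (SE 0.20) in wild type. The 95% intervals of the difference in maturation, heterozygous minus wild type, were -0.50 to 1.87 for Nkx6-2, -1.48 to 0.56 for Erbb3, -0.90 to 0.20 for Myrf, -1.54 to 0.23 for Sox10 100283_at and -0.93 to 0.26 for Pdgfra.

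No difference in maturation between genotypes was called by limma among the members (0 of 8, lowest adjusted p = 0.822, 0 of 8 with an unadjusted p below 0.05) or over all tested probe sets (0%, with 508 at an unadjusted p below 0.05). From P10 to P15, 6 of 8 were called in heterozygotes, beside 21.2%, and 4 of 8 in wild type, beside 5.76%. The difference between these steps was called for 0 of 8 (lowest limma adjusted p = 0.764, 0 of 8 with an unadjusted p below 0.05), beside 0% (505 at an unadjusted p below 0.05). The wild-type step of Nkx6-2, 1.53 (SE 0.40, limma adjusted p = 0.0235), was not called without the P10 library 2a or 2b or the P15 library 1a, 1b or 2d (1.11 to 1.44, limma adjusted p 0.0592 to 0.166). This wild-type step was also not called on the log2(intensity + 32) scale (0.51, limma adjusted p = 0.0818). The same held with the compared groups alone (1.53, limma adjusted p = 0.166) or the title code in the model (1.75, limma adjusted p = 0.0943). The wild-type step of Sox10 102856_at, 0.43 and not called (limma adjusted p = 0.103), became a called 0.54 without the P15 library 1b, and its heterozygous step of 0.51 was not called without the P15 library 2d (0.38, limma adjusted p = 0.0675). Nkx2-2 in heterozygotes, at 0.50 and not called (limma adjusted p = 0.12), was called at the same size without the wild-type P15 library 1b (limma adjusted p = 0.0452). It was also called at 0.50 when the heterozygous P10 and P15 libraries alone were fitted (limma adjusted p = 0.00844). From P15 to P28 and P32, 0 of 8 were called in heterozygotes, beside 15.8%, and 3 of 8 in wild type, beside 33%. The difference was called for 0 of 8 (lowest limma adjusted p = 0.981, 0 of 8 with an unadjusted p below 0.05), beside 0% (348 at an unadjusted p below 0.05).

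**Figure D4:**
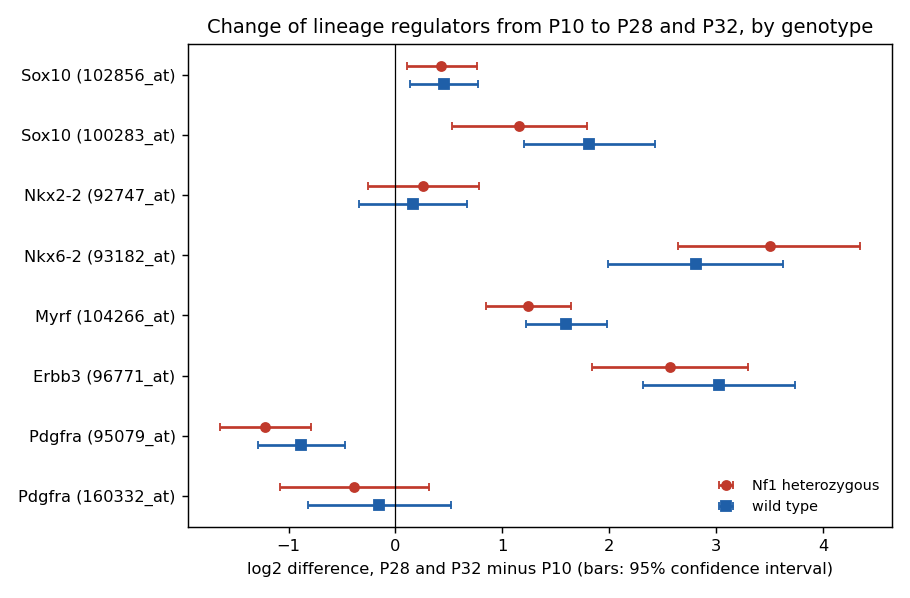
Log2 difference of P28 and P32 minus P10 with its 95% confidence interval for each tested probe set, with Nf1 heterozygotes as red circles above wild type as blue squares. For each of the 8 probe sets the 2 intervals overlap, and Nkx6-2 lies at 3.50 in heterozygotes and 2.81 in wild type.

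Between genotypes at matched ages, no difference was called for any member. Over all ages the differences, heterozygous minus wild type, ranged from 0.02 for Nkx2-2 to 0.34 for Erbb3, and limma called 0 of 8 (lowest adjusted p = 0.513), beside 0% of all tested probe sets. Unadjusted p-values were below 0.05 for 2 of the 8, and for 698 of the 7453 probe sets. Those 2 were Myrf, at 0.22 (SE 0.10, 95% interval 0.01 to 0.43), and Sox10 102856_at, at 0.18 (SE 0.08, 95% interval 0.01 to 0.35). The mean log2 level was higher in heterozygotes at 5 of 6 ages for Sox10 102856_at and Erbb3, at 4 of 6 for Myrf, Nkx6-2 and both tested Pdgfra probe sets, and at 2 of 6 for Sox10 100283_at and Nkx2-2. The interval for Erbb3 was -0.01 to 0.68, and that for Nkx6-2 was -0.23 to 0.56.

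At single ages 0 of 48 tests were called. The background was 0.0403% of probe sets at P10, 0% at P15 (440 at an unadjusted p below 0.05), 22.8% at P18, 2.27% at P20, 0.0134% at P28 and 0.0537% at P32. At P10 Myrf differed by 0.46 (SE 0.19, limma adjusted p = 0.677). At P15 it differed by 0.44 (SE 0.17, limma adjusted p = 0.771). Erbb3 at P20 had the largest difference of the 48, 0.95 (SE 0.45, limma adjusted p = 0.29), with 197 and 163 in heterozygous libraries above 91.5 and 94.4 in wild-type libraries. When the P20 libraries alone were fitted this difference was called (limma adjusted p = 0.0443). Sox10 102856_at was higher in heterozygotes at P15 (0.30, SE 0.14, limma adjusted p = 0.83) and at P20 (0.50, SE 0.20, limma adjusted p = 0.198), neither called. Sox10 102856_at stood at -0.46 at P18 (SE 0.20, limma adjusted p = 0.099), at 305 and 202 in heterozygotes and 321 and 361 in wild type, and it became a called -0.75 (limma adjusted p = 0.0106) without the heterozygous P18 library 1a. The interaction of genotype with age was called for 0 of 8 members (lowest limma adjusted p = 0.177, 1 of 8 with an unadjusted p below 0.05), beside 6.49% of all tested probe sets. The probe set with the unadjusted p below 0.05 was again Sox10 102856_at. Between P15 and P18 the change differed between genotypes for 1 of 8 members, beside 12% of all tested probe sets. It was Sox10 102856_at, at -0.75, heterozygous minus wild-type change (SE 0.24, limma adjusted p = 0.0452). The call was lost without the heterozygous P18 library 1b (-0.46, limma adjusted p = 0.374) and after adjustment for the Gapdh ratio (-0.44, limma adjusted p = 0.437).

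**Figure D5:**
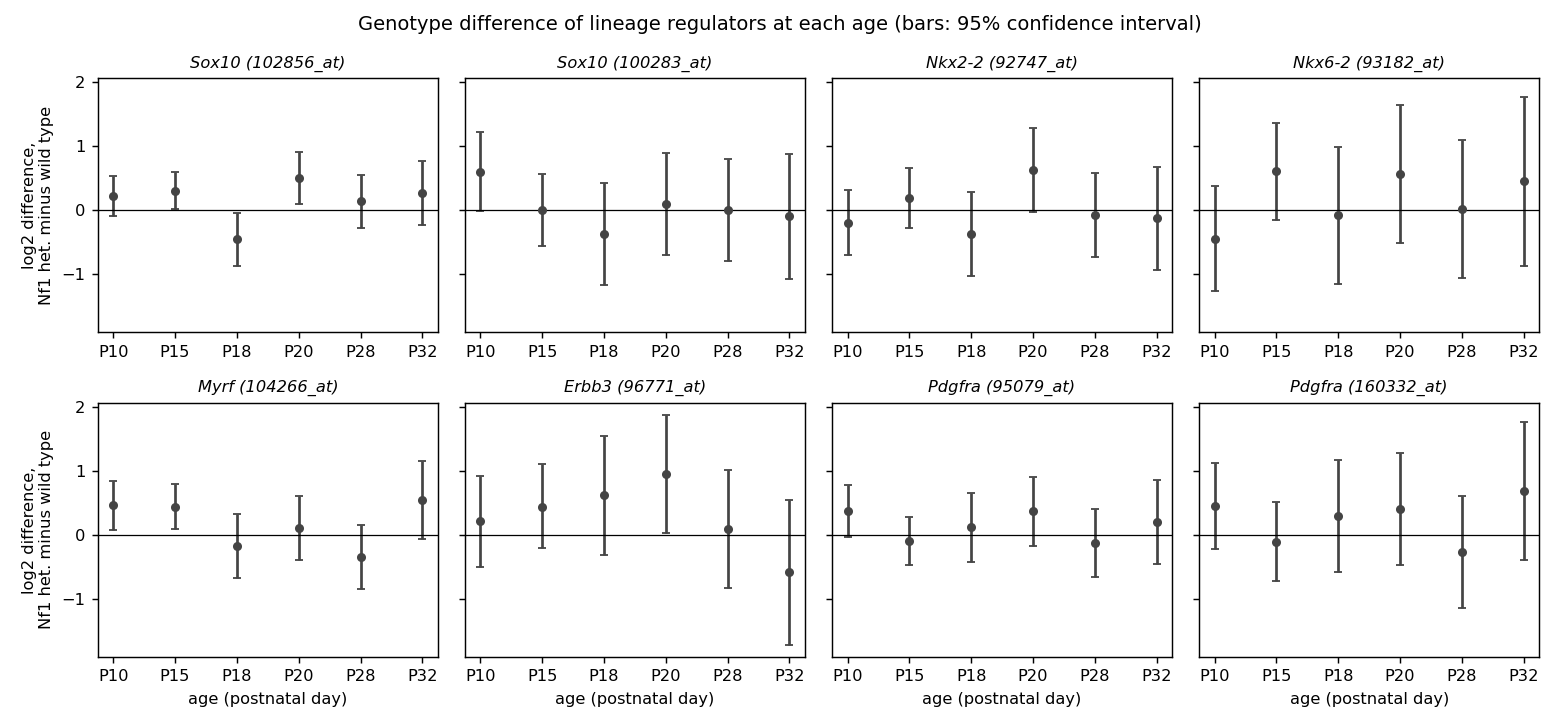
Log2 difference, Nf1 heterozygous minus wild type, at each age in postnatal days for the 8 tested probe sets, with the 95% confidence interval. The points lie between -0.59 and 0.95, and none was called after adjustment over all tested probe sets.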

How the data were processed

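Total RNA of 30 hippocampal pools (15 Nf1 heterozygous, 15 wild type) was read on 1-colour arrays of 12488 probe sets. The authors deposited 1 intensity per probe set and array. The range of the values shows a linear scale with no log2 taken, and their like trimmed means on every array show that arrays had been brought to a common level. Software: not given in the sources used here. Gene names came from the platform annotation, with current symbols, gene coordinates and promoters from RefSeq tables of GRCm38.p6. Coordinates are those of genes, not probes.

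Before taking log2, values under 1 were raised to 1. The 66 control probe sets and the dimmest 40% of the others (mean log2 up to 4.95) were left out, and 7453 probe sets were tested. Linear models over all 30 libraries were fitted with limma 3.58.1 in R 4.3.3 (intensity trend in the variance prior, two-sided tests, Benjamini-Hochberg adjustment over all tested probe sets). One model had a mean per genotype and age, and the other had age and genotype. The computation was tested on simulated data. Precision is limited by how many arrays a group has.

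The members, gene lists and rule for named genes were chosen with earlier results of these data known. The rule named all member probe sets, the 2 to 4 called genes with the largest change of a list, and the 3 genes most like each member. Pdgfa, Tgfa, Pmp22, Erbb4, Nrg3, Cnp, Gjb1, Dcn and Lum, which fall outside that rule, were chosen after their values were seen. The lists were other lineage transcription factors, PDGF and EGF family genes, precursor genes, and markers of myelinating oligodendrocytes, neurons, fibroblasts, Schwann cells, astrocytes and microglia. Alternatives were another log scale, quantile normalization, other filters, no trend, array weights, compared groups only, replicate blocks, a Gapdh 3′/5′ covariate, no heterozygous P18 libraries, and each library left out. Deviations from group means of libraries sharing a title code correlated at -0.342 to 0.155 (median -0.00454, 59 pairs), so the codes were not taken as pairs. Only libraries of different groups with the same full code were compared. The check therefore cannot show likeness by title number within a group, such as the P15 pairs of Erbb3.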

Additional observations from a re-analysis of the deposited data

Results flagged for a closer look

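Of 56 genotype differences of an age change among the 8 tested member probe sets, 1 was called. From P15 to P18, Sox10 102856_at changed by -0.10 (SE 0.17) in Nf1 heterozygotes and by 0.66 (SE 0.17) in wild type, and the difference between the genotypes was -0.75 (SE 0.24, limma adjusted p = 0.0452). In this comparison 12% of all tested probe sets were called. The 2 heterozygous P18 libraries read 305 and 202, against 321 and 361 in wild type at P18. Leaving out 1 library at a time moved the difference between -1.05 and -0.46, and it was called in 14 of 30 such fits. It was also not called with no filter (limma adjusted p = 0.0663), no intensity trend (0.056), array weights (0.175), the compared groups only (0.161) or the title-code replicate block (-0.55, limma adjusted p = 0.67), nor once the Gapdh ratio (3′ over 5′, log2) was a covariate (-0.44, limma adjusted p = 0.437) or without the heterozygous P18 library 1b (-0.46, limma adjusted p = 0.374). The Gapdh ratio was -0.05 and 0.48 in the heterozygous and -0.26 and -0.23 in the wild-type P18 libraries, and its part in the difference was not tested beyond that covariate. The other Sox10 probe set stood at -0.39 (SE 0.48, limma adjusted p = 0.626). No library stood apart from its group of 4 by Dixon's criterion in 30 checks of member probe sets, of which chance alone would mark about 1 in 20.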

How the results depend on the processing

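Maturation over both genotypes was called for the 6 member probe sets in every fit that left out 1 library (6 of 6). In heterozygotes and in wild type the counts were then 5 to 6, from P10 to P15 6 to 7, and from P15 to P28 and P32 3. With the dimmest 60% left out, 4 member probe sets were tested, and 3 were called in maturation (both genotypes, heterozygotes, wild type), 3 from P10 to P15 and 1 later, because fewer were tested. The Gapdh covariate left 1 later call. Of 32 later single steps 2 were called with log2(intensity + 32), 1 with the title-code replicate block, and 0 to 3 without 1 library (3 without the heterozygous P18 library 1a). Of 48 genotype tests at single ages 1 was called with the title-code replicate block (Erbb3 at P15, 1.67, limma adjusted p = 0.0143), 1 with the compared groups only, and 0 to 1 without 1 library. The interaction gave 0 to 1. Both had 1 call without the heterozygous P18 library 1a.

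No paired design is given. The title-code replicate block turned the later change of Nkx2-2 to 0.92 (limma adjusted p = 0.0058), that of Erbb3 to -0.18 (limma adjusted p = 0.739) and the P15 to P18 genotype difference of Erbb3 to -3.51 (limma adjusted p = 0.0307). It also ended the calls of Pdgfra 95079_at from P10 to P15 (-0.02, limma adjusted p = 0.976), Nkx6-2 from P15 to P28 and P32 (0.33, limma adjusted p = 0.692), and Sox10 102856_at from P10 to P15 (0.22, limma adjusted p = 0.6) and in maturation over both genotypes (0.35, limma adjusted p = 0.0602). The cause was not tested. With the title number as a replicate block, maturation of Nkx2-2 was called at 0.47 (limma adjusted p = 0.03). Of 5476 values of 136 single results under 41 settings, 51 lost a call, 8 gained one and 3 changed sign with a call on either side; 104 others changed sign with no call on either side. Dim probe sets limit the rest: changes of Nkx6-2 and Erbb3 depend on the log scale.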

Other observations

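Spread within an age was uneven between members. At P15 the SD of log2 values over both genotypes was 0.70 for Erbb3, 0.68 for Nkx6-2 and 0.53 for Nkx2-2 (n = 8 each), against 0.29 for Sox10 102856_at and for Pdgfra 95079_at. At P28 and P32 it was 0.25 for Erbb3, 0.33 for Nkx6-2 and 0.13 for Nkx2-2 (n = 7 each). Deviations from group means of Erbb3 and Nkx2-2 correlated at -0.58 across the 30 arrays, and those of Sox10 102856_at and Pdgfra 95079_at at -0.51. These are descriptions of libraries that share the same groups.

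Markers of other cell types were read beside the members. In maturation over both genotypes 24.7% of all tested probe sets were called higher and 29% lower, and the neuron counts lie near these shares. Among them 3 of 5 tested astrocyte markers rose and 1 fell, led by Aldoc, a glycolytic enzyme (0.77, SE 0.06), and Gfap, an intermediate filament (0.74, SE 0.15). Of 6 tested microglia markers 4 rose and 1 fell, with the protease gene Ctss at 1.24 (SE 0.09) and the chemokine receptor gene Cx3cr1 at -0.79 (SE 0.10). Of 6 tested hippocampal neuron markers 2 rose and 1 fell, with the synaptic gene Snap25 at 0.74 (SE 0.09) and Neurod1, a gene of young granule neurons, at -1.05 (SE 0.14). No gene of any list was called between genotypes over all ages by limma, as for the members.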
